A study of Oryctolagus cuniculus with 6 samples.

Results

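Aminoacyl-tRNA synthetases are the enzymes that load each tRNA with its amino acid before translation. The transcripts of 36 synthetase genes were followed among 22190 genes measured by RNA-seq in primary LSCs (limbal stem cells) of the rabbit. The members were taken by name: 33 symbols of the form of a letter, ARS and the digit 1 or 2, together with EPRS1, FARSA and FARSB. By this division 20 genes encoded cytosolic and 16 encoded mitochondrial enzymes. The deposited table assigned all 36 to the pathway aminoacyl-tRNA biosynthesis. A mitochondrial GO term was attached to 16 of 16 mitochondrial enzymes and to 1 of the 18 cytosolic enzymes with any GO term, KARS1.

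LSCs had grown out of limbal explants in keratinocyte medium, and 3 libraries were made in each of 2 groups. In the fresh group, the explants came from corneas that had not been frozen. In the preconditioned group, the corneas had first been held in liquid nitrogen for a week in a cryomedium with IL-1β, an inflammatory cytokine, so that freezing and IL-1β cannot be told apart. Strain and age of the rabbits are not given in the sources used here, nor whether the libraries of a group came from separate animals, so the p-values measure the spread between these libraries only.

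Cells use separate sets of synthetases for translation in the cytosol and in mitochondria, and both sets are encoded in the nucleus. In animals the gene with the digit 1 usually serves the cytosol and the gene with the digit 2 the mitochondria. GARS1 and KARS1 each serve both compartments, EPRS1 charges both the glutamate and the proline tRNAs of the cytosol, and FARSA and FARSB are the subunits of a single phenylalanine enzyme. Several cytosolic enzymes are held together in the multisynthetase complex. Many cytosolic synthetase genes are known targets of ATF4, the transcription factor of the amino acid response, and WARS1 is known for its induction by interferon.

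The 6 libraries held 31952352 to 34327534 counts on genes. All 36 genes passed the filter on low counts, and the lowest count of any of them in a library was 33, for PARS2. On the first principal component, which held 54.1% of the variance of log2 CPM, the fresh libraries lay between −43.4 and −32.9, preconditioned replicate 1 at 3.56, and preconditioned replicates 2 and 3 at 48.7 and 58.1. Results are therefore also given without preconditioned replicate 1. Of 15 limbal epithelial markers, 11 were read, and their CPM (counts per 1e+06, scaled by TMM) summed to between 14299 and 17632 in fresh libraries and between 14477 and 18446 in preconditioned libraries. Gene by gene they were mixed, with 5 negative and 6 positive log2 fold changes, from −1.21 to 0.81. The 7 conjunctival and goblet cell markers read summed to between 3048 and 5392 CPM in fresh libraries and between 2799 and 5351 CPM in preconditioned libraries. All 16 stromal markers were detected, and their sum was higher in every preconditioned library (1411 to 2503 CPM) than in every fresh library (585 to 1284 CPM). Gene by gene the stromal markers were mixed, since 5 of the 16 had a negative log2 fold change, 13 overlapped between the groups, and COL1A1 alone rose by the test used below. The 9 immune markers read summed to between 108 and 138 CPM in fresh libraries and between 127 and 329 CPM in preconditioned libraries, with CD3E and CD4 at 2 counts or fewer in every library. The part of these other cells in the results below was not tested. In bulk RNA, fewer cells of a type and less RNA per cell cannot be told apart.

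LSCs carried far more transcript of cytosolic than of mitochondrial synthetases. Expression was compared between genes in FPKM, the deposited count scaled by gene length and library total. Averaged over the 6 libraries, the median of the 20 cytosolic enzymes was 43.3 FPKM and that of the 16 mitochondrial enzymes was 4.43 FPKM. Of the cytosolic enzymes, 18 lay above the highest mitochondrial enzyme, and 12 of the mitochondrial enzymes lay below the lowest cytosolic enzyme.

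**Figure D1:**
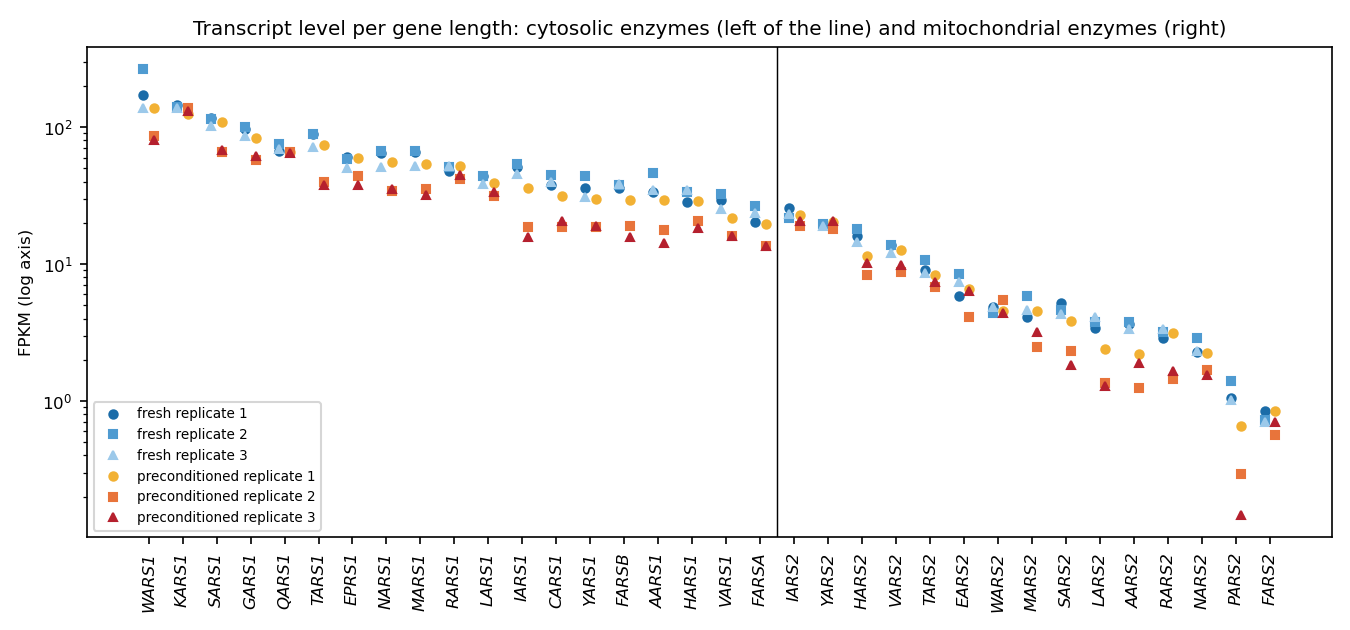
FPKM of 34 synthetase genes in each of the 6 libraries (log axis), with genes ordered by their mean within cytosolic (left) and mitochondrial (right) enzymes. Colours and shapes mark the libraries. Of the cytosolic enzymes drawn, FARSA alone had a mean below that of IARS2, the highest mitochondrial enzyme.

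WARS1, the tryptophan enzyme, had the highest level of all 36 genes in the fresh group and in the mean over all libraries, with 192 ± 65.6 FPKM in the fresh group and 102 ± 32.2 FPKM in the preconditioned group (SD, n = 3 each). KARS1, the lysine enzyme of both compartments, came next with 142 ± 4.23 and 131 ± 7.16 FPKM (SD, n = 3 each), and had the higher mean of both in the preconditioned group. These neighbours did not differ beyond the spread of WARS1. SARS1, the serine enzyme, and GARS1, the glycine enzyme of both compartments, had mean levels of 96.0 and 80.8 FPKM over all libraries.

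Among mitochondrial enzymes, IARS2 (isoleucine) was the highest with 23.4 ± 1.93 FPKM in the fresh group and 20.7 ± 1.91 FPKM in the preconditioned group (SD, n = 3 each). YARS2 (tyrosine) followed with 19.4 ± 0.337 and 19.6 ± 1.31 FPKM, below IARS2 by more than the spread in the fresh group and within it in the preconditioned group. The lowest were PARS2 (proline), with a mean of 0.761 FPKM, and FARS2 (phenylalanine), with 0.730 FPKM. The length behind FPKM was 16337 bases for FARS2, the longest of all members, so its low position depends on the gene model used by the authors.

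The comparison of the preconditioned with the fresh group asked how preconditioning of the limbus changed the transcripts of the LSCs obtained from it. No synthetase gene passed the test across all genes, although most were lower on average in the preconditioned group. In edgeR's quasi-likelihood test, adjusted by Benjamini-Hochberg over 15029 genes, 0 of 36 reached the adjusted threshold of 0.05, whereas 5.08% of all tested genes did (2.2% lower and 2.88% higher). Adding the cutoff of a log2 fold change of 1 or more in either direction left 0 of 36, against 2.29% of all tested genes, 1.2% in the lower direction. At an unadjusted p under 0.05 there were 12 genes, all lower, whereas 30.6% of all tested genes met this in either direction and 15.1% as lower. By DESeq2's Wald test 9 genes reached the adjusted threshold, all lower, against 9.43% of the genes it tested, and edgeR scaled by library size only gave 5, all lower, against 6.97%.

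The log2 fold change, preconditioned over fresh, was negative for 30 of the 36 genes, as it was for 49.5% of all tested genes. Its median was −0.36 over the 36 genes and 0.0071 over all tested genes. The 3 preconditioned libraries lay below all 3 fresh libraries for 11 of the 36 genes (18.8% of all tested genes) and above them for 2 genes, WARS2 and YARS2 (17.9% of all tested genes). For the other 23 genes the groups overlapped.

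**Figure D2:**
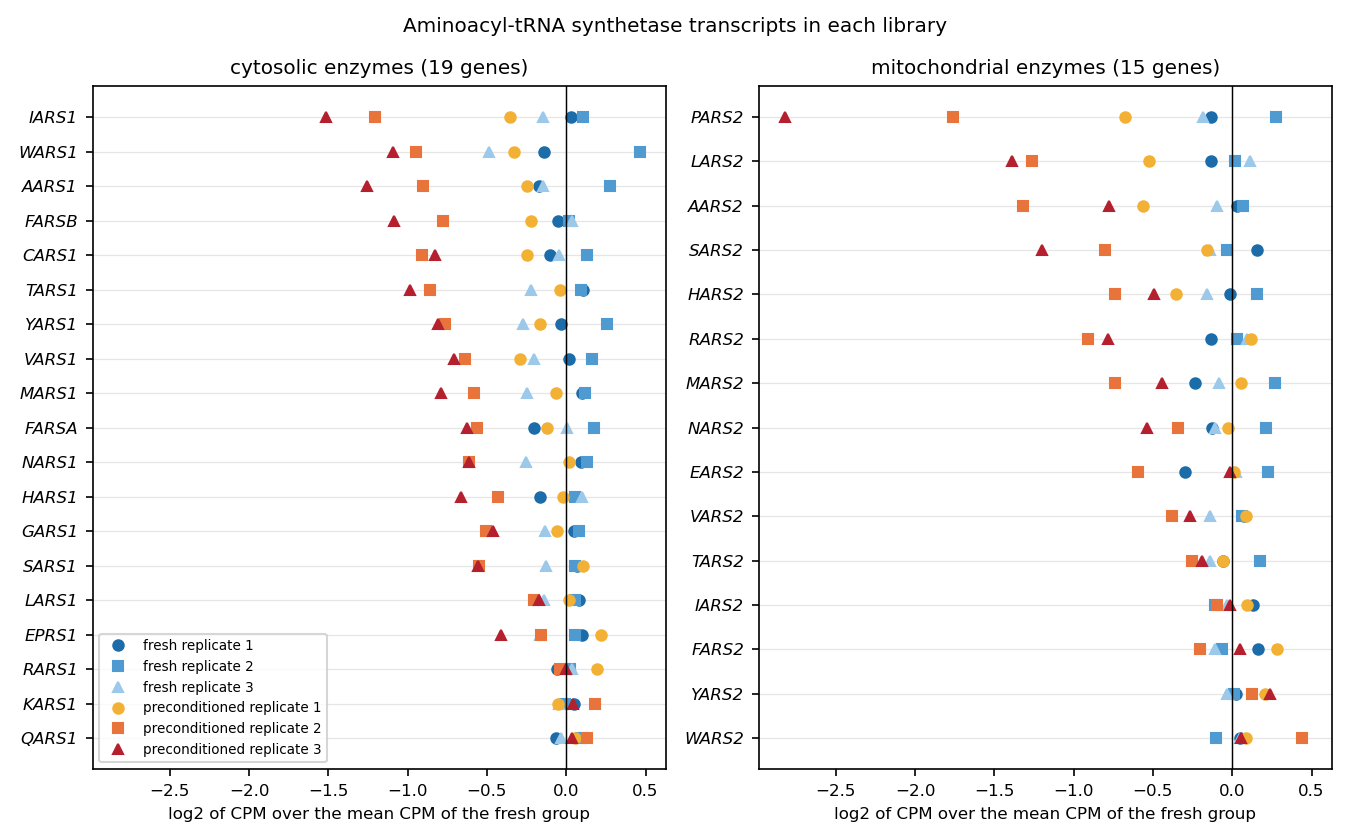
CPM of 34 synthetase genes in each library relative to the mean of the fresh group (log2), with cytosolic enzymes on the left and mitochondrial enzymes on the right. Preconditioned replicates 2 and 3 lie to the left for most genes, whereas preconditioned replicate 1 lies near the fresh libraries. The widest spread is that of PARS2.

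The preconditioned libraries differed among themselves. The median log2 ratio of CPM to the fresh mean over the 36 genes was −0.046 in preconditioned replicate 1, −0.58 in replicate 2 and −0.58 in replicate 3, and −0.10 to 0.072 in the fresh libraries. Preconditioned replicate 1 was the highest of the 3 for 32 of the 36 genes, as it was for 39.6% of all tested genes. Replicates 2 and 3 both lay below every fresh library for 27 of the 36 genes (30.2% of all tested genes). All 36 genes together took 0.349% to 0.426% of the counts in the fresh libraries, 0.337% in preconditioned replicate 1, and 0.244% and 0.240% in replicates 2 and 3.

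Without preconditioned replicate 1, edgeR placed 21 of the 36 genes past the adjusted threshold, all of them lower, against 13.9% of all tested genes that were lower and 25.2% in either direction. These were 14 of 20 cytosolic and 7 of 16 mitochondrial enzymes. Without any other single library the count stayed at 0, and the lower calls among all tested genes numbered 9 to 30 in place of 330. With all 6 libraries the count also depended on the method, from 0 in edgeR with TMM scaling to 9 in DESeq2.

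Cytosolic and mitochondrial enzymes were then compared. The median log2 fold change was −0.39 for the cytosolic and −0.31 for the mitochondrial enzymes, a difference of −0.082. Leaving out single libraries moved this difference from −0.0082 (without preconditioned replicate 3) and −0.016 (without fresh replicate 1) to −0.15 (without fresh replicate 2), and it was −0.19 in limma on log2(FPKM + 1). Without GARS1 and KARS1, which serve both compartments, the cytosolic median was −0.43. The mean was lower in the preconditioned group for 17 of 20 cytosolic and for 13 of 16 mitochondrial enzymes. The groups did not overlap for 5 cytosolic enzymes, all lower, and for 8 mitochondrial enzymes, 6 lower and 2 higher, where 36.7% of all tested genes did not overlap (18.8% lower and 17.9% higher). By library, the cytosolic median was −0.055, −0.56 and −0.64 in preconditioned replicates 1, 2 and 3, and the mitochondrial median was −0.0072, −0.65 and −0.46.

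**Figure D3:**
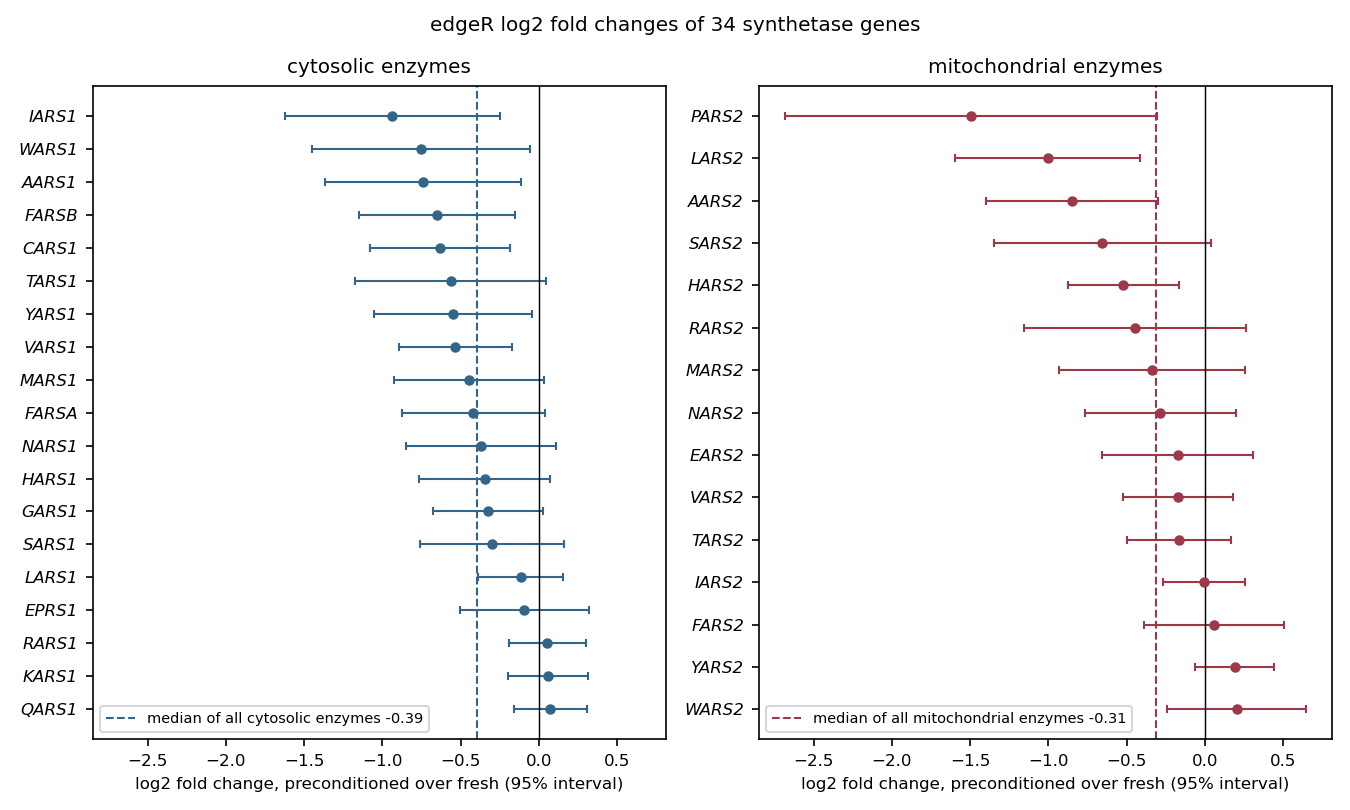
Log2 fold change of 34 genes between the preconditioned and fresh groups from edgeR, with its 95% interval (bars) and the median of all 20 or 16 enzymes of each compartment (dashed lines, −0.39 and −0.31). The intervals of QARS1, KARS1, RARS1 and IARS2 are narrow and include 0, and that of PARS2 is the widest.

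IARS1 (gene 100356680), the cytosolic isoleucine enzyme and a member of the multisynthetase complex, had the most negative log2 fold change among cytosolic enzymes. Its expression was 209.6, 222 and 186 CPM in the fresh libraries and 161, 89.3 and 72.0 CPM in the preconditioned libraries. All preconditioned libraries were below all fresh libraries, and replicate 1 was closest to them. The log2 fold change was −0.94 (standard error, SE, 0.29, edgeR adjusted p 0.0890). Without preconditioned replicate 1 it was −1.36.

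WARS1 (gene 100009123) had 423, 643 and 333 CPM in the fresh libraries and 370.5, 241 and 219 CPM in the preconditioned libraries. The groups overlapped, since preconditioned replicate 1 exceeded fresh replicate 3, and fresh replicate 2 stood above the others. The log2 fold change was −0.75 (SE 0.29, edgeR adjusted p 0.141). It was −1.03 without preconditioned replicate 1, where it just passed the adjusted threshold, and −0.45 without fresh replicate 2. Interferon-induced genes were read beside it. The 25 genes of that list summed to 7825 CPM in fresh replicate 2 and 292 CPM in preconditioned replicate 3, the libraries in which WARS1 was highest and lowest. In the other libraries the sum was 2966 and 3640 CPM (fresh replicates 1 and 3) and 3369 and 1160 CPM (preconditioned replicates 1 and 2). For 24 of the 25 genes the log2 fold change was negative, with a median of −1.34, but none passed the adjusted threshold. DESeq2 called 4 lower, against 9.43% of all genes it tested. At an unadjusted p under 0.05 in edgeR there were 5, all lower, against 15.1% of all tested genes. The median was −2.52 without preconditioned replicate 1, with 4 genes called lower against 13.9% of all tested genes, and it was −0.91 without fresh replicate 2. HERC5, a ligase that attaches ISG15, had the most negative value of the list, −2.25 (SE 0.80, edgeR adjusted p 0.118). CXCL10, CMPK2 and RSAD2 followed with log2 fold changes of −2.12, −2.06 and −1.93. The part of this list in the level of WARS1 was not tested.

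AARS1, the alanine enzyme, had 106, 145 and 108 CPM in the fresh libraries and 101, 64.0 and 50.0 CPM in the preconditioned libraries, without overlap. Its log2 fold change was −0.74 (SE 0.27, edgeR adjusted p 0.118). FARSB, the beta subunit of the cytosolic phenylalanine enzyme, had 68.1, 71.3 and 72.4 CPM in the fresh libraries and 60.6, 41.1 and 33.3 CPM in the preconditioned libraries. Its groups were separate as well, with a log2 fold change of −0.65 (SE 0.21, edgeR adjusted p 0.0965). FARSA, the alpha subunit, had a log2 fold change of −0.42 (SE 0.19), and its groups overlapped. CARS1, the cysteine enzyme, had 68.9, 81.0 and 71.7 CPM in the fresh libraries and 62.3, 39.3 and 41.6 CPM in the preconditioned libraries. Its log2 fold change was −0.63 (SE 0.19, edgeR adjusted p 0.0835), and VARS1, the valine enzyme, had the lowest adjusted p of the cytosolic enzymes, 0.0756, at a log2 fold change of −0.53 (SE 0.15). CARS1 and VARS1 also had separate groups.

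For TARS1, YARS1, MARS1, NARS1, HARS1, GARS1 and SARS1, the log2 fold changes were −0.56, −0.55, −0.45, −0.37, −0.35, −0.33 and −0.30, and the groups overlapped for each. Without preconditioned replicate 1 all 7 passed the adjusted threshold in edgeR as lower, as 13.9% of all tested genes did, with log2 fold changes of −0.93, −0.80, −0.69, −0.62, −0.55, −0.49 and −0.56. In GARS1, mutated in a hereditary neuropathy, the fresh libraries had 210.1, 215 and 185 CPM and the preconditioned libraries 196, 143 and 148 CPM. Preconditioned replicate 1 lay within the fresh range and the other preconditioned libraries below it. NARS1 has a second row, LOC103352006, described as similar to the cytoplasmic asparagine enzyme, and reads of near-identical sequence could have been divided between them. That row averaged 14.3 ± 1.49 CPM when fresh and 8.62 ± 0.710 CPM when preconditioned (SD, n = 3 each), without overlap (log2 fold change −0.73, SE 0.17, edgeR adjusted p 0.0540).

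Some cytosolic enzymes had intervals close around 0. KARS1 had 312, 300.1 and 291 CPM in the fresh libraries and 290.1, 342 and 309.8 CPM in the preconditioned libraries, with the groups interleaved. Its log2 fold change was 0.059 (95% interval −0.20 to 0.31). QARS1, the glutamine enzyme, had a log2 fold change of 0.074 (95% interval −0.16 to 0.31), and RARS1, the arginine enzyme, had 0.054 (95% interval −0.19 to 0.30). Scaling by library size only, not TMM, moved the median over all tested genes from 0.0071 to −0.16, and all 3 values became negative (−0.11, −0.096 and −0.11). LARS1, the leucine enzyme and a leucine sensor upstream of mTORC1, had a log2 fold change of −0.12 (95% interval −0.39 to 0.16). EPRS1 had 285, 276 and 237 CPM in the fresh libraries and 309, 238 and 199.7 CPM in the preconditioned libraries. Its highest and lowest values were both in the preconditioned group, and its log2 fold change was −0.094 (95% interval −0.51 to 0.32).

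KARS1, QARS1, RARS1, LARS1 and EPRS1 all encode subunits of the multisynthetase complex, as do IARS1 and MARS1. Over the 8 genes of the complex the median log2 fold change was −0.073, and over the 12 cytosolic enzymes outside it the median was −0.54. The median of the complex was −0.17 without preconditioned replicate 1, 0.041 without preconditioned replicate 3 and −0.24 with library size alone, where that of the other 12 genes was −0.74, −0.41 and −0.71. It was also −0.028 without fresh replicate 1 and −0.12 without fresh replicate 3, against −0.52 and −0.63. Of the 8 genes of the complex, 5 had a negative log2 fold change, compared with 12 of 12 outside it. By library, the median log2 ratio to the fresh mean over the 8 genes was 0.036, −0.10 and −0.20 in preconditioned replicates 1, 2 and 3. Over the 12 genes outside the complex it was −0.14, −0.70 and −0.75. Without preconditioned replicate 1, 2 of the 8 genes (IARS1 and MARS1) and 12 of the 12 genes passed the adjusted threshold in edgeR, all lower, where 13.9% of all tested genes did. The difference between these 2 sets was not tested. The scaffold genes of the complex, AIMP1, AIMP2 and EEF1E1, had log2 fold changes of −0.13, −0.0062 and −0.35, with adjusted p values of 0.694, 0.989 and 0.471.

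**Figure D4:**
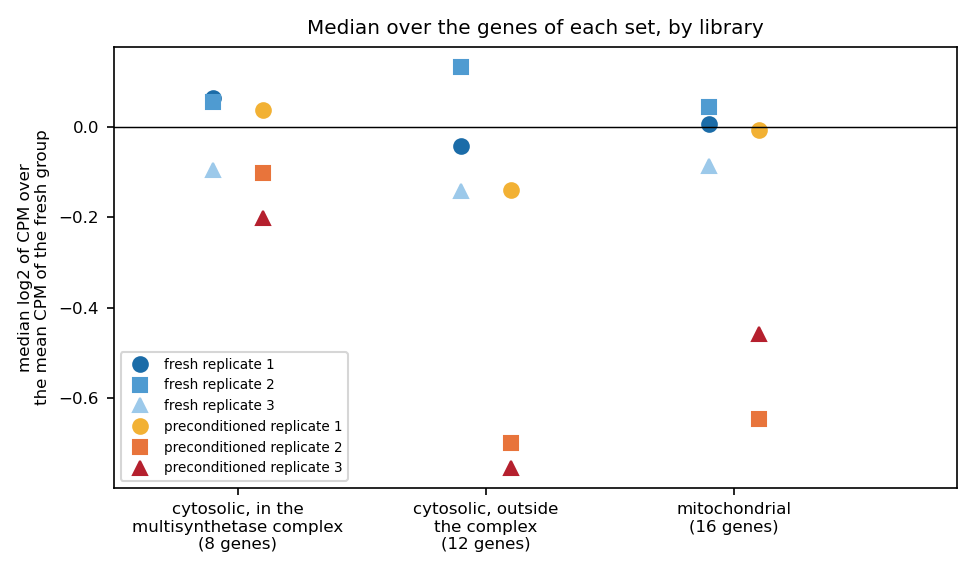
Median over genes of the log2 ratio of CPM (plus 0.5) to the mean of the fresh group, by library, for cytosolic enzymes in the multisynthetase complex (8 genes), cytosolic enzymes outside it (12 genes) and mitochondrial enzymes (16 genes). In preconditioned replicates 2 and 3 the complex lies at −0.10 and −0.20, and the other cytosolic enzymes lie at −0.70 and −0.75.

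When all 36 enzymes were divided by the fold of the catalytic domain in place of the compartment, the median log2 fold change was −0.26 for 18 class I enzymes and −0.39 for 18 class II enzymes, with EPRS1, which has domains of both, counted in class I.

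Mitochondrial enzymes had the most negative value of all 36 genes as well as the most positive. PARS2 (gene 100339914), the mitochondrial proline enzyme, had 7.01, 9.28 and 6.76 CPM in the fresh libraries and 4.81, 2.27 and 1.09 CPM in the preconditioned libraries. All 3 preconditioned libraries were lower, and they differed more from each other than the fresh libraries did. The log2 fold change was −1.49 (SE 0.51, edgeR adjusted p 0.104). It ranged from −2.20 without preconditioned replicate 1, where it passed the adjusted threshold, to −1.11 without preconditioned replicate 3, and DESeq2 also called it.

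LARS2 (gene 100358356), the mitochondrial leucine enzyme, had the lowest adjusted p of the 36 genes. Its expression was 19.1, 21.2 and 22.6 CPM in the fresh libraries and 14.6, 8.73 and 8.002 CPM in the preconditioned libraries, which lay apart. The log2 fold change was −1.01 (SE 0.25, edgeR adjusted p 0.0585), so that it met the fold cutoff but not the cutoff on the adjusted p.

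AARS2, the mitochondrial alanine enzyme, had 12.2, 12.5 and 11.2 CPM in the fresh libraries and 8.09, 4.80 and 6.98 CPM in the preconditioned libraries. The groups did not overlap, at a log2 fold change of −0.85 (SE 0.23, edgeR adjusted p 0.0699). SARS2, the mitochondrial serine enzyme, had 9.85, 8.66 and 8.04 CPM in the fresh libraries and 7.91, 5.08 and 3.85 CPM in the preconditioned libraries. Preconditioned replicate 1 was only just below the lowest fresh library (log2 fold change −0.66, SE 0.30, edgeR adjusted p 0.183, and −0.996 without it).

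HARS2 and HARS1, the mitochondrial and cytosolic histidine enzymes, are neighbours in the RefSeq assembly mOryCun1.1, with 0 genes between them and 14 bases shared by their gene models, so that a few reads could belong to either. HARS2 had 35.3, 39.7 and 31.9 CPM in the fresh libraries and 27.8, 21.3 and 25.3 CPM in the preconditioned libraries. All preconditioned libraries were below all fresh libraries, at a log2 fold change of −0.52 (SE 0.15, edgeR adjusted p 0.0758). HARS1 had 52.5, 61.1 and 63.1 CPM in the fresh libraries and 58.0, 43.7 and 37.1 CPM in the preconditioned libraries. Here preconditioned replicate 1 was within the fresh range (log2 fold change −0.35, SE 0.18, edgeR adjusted p 0.232).

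For RARS2, MARS2, NARS2, EARS2, VARS2 and TARS2 the groups overlapped, with log2 fold changes of −0.45, −0.34, −0.29, −0.17, −0.17 and −0.17. Without preconditioned replicate 1 these were −0.85, −0.60, −0.45, −0.29, −0.33 and −0.23, and of the 6 genes RARS2 passed the adjusted threshold. EARS2 was near 0 (−0.0016) without preconditioned replicate 2. IARS2, mutated in a syndrome with cataract, had 85.6, 72.4 and 76.5 CPM in the fresh libraries and 83.2, 73.0 and 77.2 CPM in the preconditioned libraries. The groups were interleaved, and the 95% interval of the log2 fold change was −0.27 to 0.25. FARS2 had 13.0, 11.1 and 10.8 CPM in the fresh libraries and 14.2, 10.1 and 12.1 CPM in the preconditioned libraries, again interleaved (95% interval −0.39 to 0.50).

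WARS2, the mitochondrial tryptophan enzyme, had 9.36, 8.41 and 9.35 CPM in the fresh libraries and 9.59, 12.2 and 9.38 CPM in the preconditioned libraries. The groups touched without overlap, and preconditioned replicate 2 stood above the rest (log2 fold change 0.20, 95% interval −0.24 to 0.65). YARS2 had 30.9, 30.5 and 29.6 CPM in the fresh libraries and 35.0, 33.0 and 35.7 CPM in the preconditioned libraries. Its preconditioned libraries were all higher in TMM-scaled CPM, by a small amount (log2 fold change 0.19, 95% interval −0.063 to 0.44, edgeR adjusted p 0.271). Both values were alike in edgeR with DESeq2's size factors (0.21 for WARS2 and 0.20 for YARS2), but not with scaling by library size only. With library size alone the log2 fold change was 0.030 for WARS2 and 0.022 for YARS2, and the FPKM of each gene overlapped between the groups.

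The mitochondrial cysteine enzyme was not among the members under its symbol. By gene identifier, LOC103347259 is CARS2 in mOryCun1.1. It had 4.49, 4.64 and 5.03 CPM in the fresh libraries and 4.199, 3.71 and 4.91 CPM in the preconditioned libraries, overlapping (log2 fold change −0.14, 95% interval −0.69 to 0.40). A second row described as this enzyme, LOC103346858, had 17 to 36 counts per library. TARS3, a further threonine enzyme, had 2.20, 2.42 and 5.44 CPM in the fresh libraries and 2.37, 2.21 and 2.30 CPM in the preconditioned libraries, so that only fresh replicate 3 stood apart.

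For 15 amino acids with an enzyme gene in each compartment, EPRS1 standing for both glutamate and proline, the ratio of the cytosolic to the mitochondrial transcript was taken within each library, which removes the scaling between libraries. In the fresh group the mean ratio of CPM ranged from 1.65 for HARS1 over HARS2 to 49.7 for WARS1 over WARS2. The mean log2 ratio was lower in the preconditioned group for 7 amino acids and higher for 8, and the median difference was 0.072. Of the 15 ratios, 8 were separate between groups, 3 lower and 5 higher, where 36.7% of single tested genes did not overlap in either direction. For each of the 8 the exact, two-sided permutation p was 0.1, the smallest that 3 libraries against 3 allow, and the smallest adjusted over the 15 amino acids was 0.188, so that this test on 3 against 3 libraries cannot pass a threshold of 0.05.

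**Figure D5:**
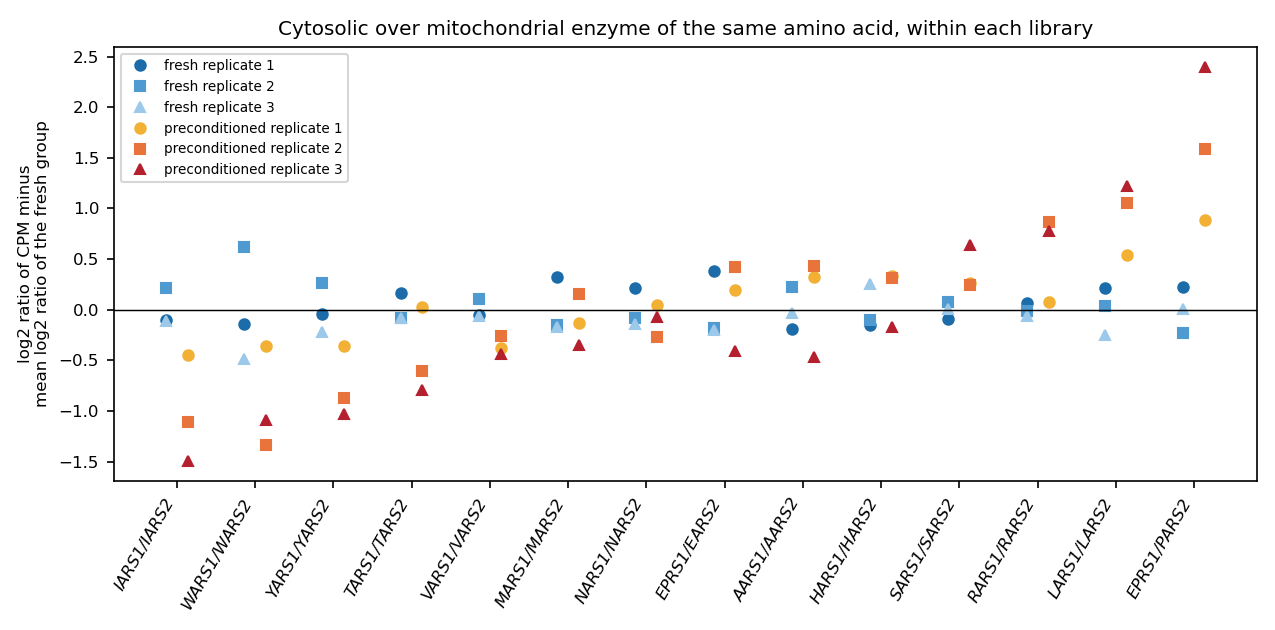
Log2 ratio of CPM of the cytosolic to the mitochondrial enzyme of 14 amino acids in each library, relative to the mean of the fresh group, ordered by the difference between groups. In the mean of the preconditioned group isoleucine lies lowest and proline highest.

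For isoleucine, the log2 ratio of IARS1 to IARS2 was 1.29, 1.61 and 1.28 in the fresh libraries and 0.95, 0.29 and −0.10 in the preconditioned libraries, so that both enzymes had about equal CPM in the last of these. For tyrosine, the log2 ratio of YARS1 to YARS2 was 1.38, 1.69 and 1.20 in the fresh libraries and 1.07, 0.55 and 0.39 in the preconditioned libraries. For valine, the third ratio that was lower without overlap, the difference was −0.36. For tryptophan the difference was −0.93, but the groups overlapped.

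In the other direction, the log2 ratio of EPRS1 to PARS2 was 5.34, 4.89 and 5.13 in the fresh libraries and 6.01, 6.71 and 7.52 in the preconditioned libraries. For leucine, the log2 ratio of LARS1 to LARS2 was 3.10, 2.92 and 2.63 in the fresh libraries and 3.42, 3.94 and 4.10 in the preconditioned libraries. Both pairs differed without overlap, and the mean differences were 1.62 and 0.94. Arginine and serine had smaller differences of 0.57 and 0.39, likewise without overlap. The glutamate, alanine and histidine ratios differed by 0.072, 0.094 and 0.16 and overlapped.

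Other genes that act on aminoacyl-tRNA were read from a list of 17 partners, of which 0 passed the adjusted threshold. Without preconditioned replicate 1, edgeR called 5 of the 17 lower, against 13.9% of all tested genes, at a median of −0.41. With all libraries the log2 fold change was negative for 13 of the 17, with a median of −0.24. DESeq2 called 1 lower at the adjusted threshold, against 9.43% of all genes it tested. In edgeR 1 had an unadjusted p under 0.05, also lower, against 15.1% of all tested genes. At the unadjusted threshold this was DTD1, which removes D-amino acids from mischarged tRNA. It had 13.4, 15.2 and 14.1 CPM in the fresh libraries and 9.74, 10.5 and 7.84 CPM in the preconditioned libraries, without overlap (log2 fold change −0.61, SE 0.18, edgeR adjusted p 0.0795). TARS3 had −0.55, which was −0.013 without fresh replicate 3, AARSD1, an editing protein related to the alanine enzyme, had −0.36, and TRMU, which thiolates mitochondrial tRNA, had −0.35 on the log2 scale.

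Of 8 cytosolic elongation factors, which bring charged tRNA to the ribosome or act in the steps around it, 6 had a positive log2 fold change and 2 a negative one. The median was 0.42 (0.25 with library size alone), and 5 did not overlap between groups, all higher, as for 17.9% of all tested genes. None passed the adjusted threshold in edgeR. DESeq2 called 2 higher (9.68% of all genes it tested). Without preconditioned replicate 1, edgeR called 4 higher and 1 lower (25.2% of all tested genes in either direction). With all libraries 5 had an unadjusted p under 0.05, all higher, where 2329 of 15029 tested genes did in that direction. EEF1B2, a subunit of the exchange factor for EEF1A, had 439, 431 and 359 CPM in the fresh libraries and 501, 643 and 706 CPM in the preconditioned libraries (log2 fold change 0.59, SE 0.16, edgeR adjusted p 0.0680). EEF1A2 had the largest log2 fold change of these, 3.20 (SE 0.78, edgeR adjusted p 0.0585), and EEF1A1, the main carrier of charged tRNA, had 0.47, whereas EEFSEC, the selenocysteine factor, had −0.54. Of 10 mitochondrial translation factors, which act in initiation, elongation, release and recycling, 9 had a negative log2 fold change, with a median of −0.21. None passed the adjusted threshold in edgeR or DESeq2. Without preconditioned replicate 1, edgeR called 1 lower, against 13.9% of all tested genes, at a median of −0.35. With all libraries 1, TUFM, had an unadjusted p under 0.05, in the lower direction, as did 15.1% of all tested genes. The elongation factors TSFM and TUFM had log2 fold changes of −0.75 and −0.34, the initiation factor MTIF2 had −0.40, and MTRFR, which releases stalled ribosomes, had −0.36.

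Genes of the amino acid response were also mostly lower on average. Of 30 genes, 24 had a negative log2 fold change, with a median of −0.57 (−0.38 without preconditioned replicate 2), and 1 passed the adjusted threshold, in the lower direction, where 2.2% of all tested genes were called lower. DESeq2 called 10 of the 30 lower (9.43% of all genes it tested), and edgeR without preconditioned replicate 1 called 15 lower and 1 higher (25.2% of all tested genes in either direction), with 0 called when any other library was left out. The gene passing in edgeR with all 6 libraries was DDIT4, an inhibitor of mTORC1, which fell, averaging 111 ± 20.5 CPM over fresh and 60.6 ± 7.33 CPM over preconditioned libraries (SD, n = 3 each). On the log2 scale the difference was −0.88 (SE 0.16, edgeR adjusted p 0.0389). TRIB3, an ATF4 target, had 26.3, 30.4 and 28.1 CPM in the fresh libraries and 18.4, 3.55 and 1.81 CPM in the preconditioned libraries. Its log2 fold change was −1.83, and those of SLC7A5, STC2 and CBS were −1.62, −1.61 and −1.41, with adjusted p values from 0.0902 to 0.170 for these 4 genes. The list summed to 1557 to 1988 CPM in the fresh libraries and to 1398, 1099 and 1194 CPM in preconditioned replicates 1, 2 and 3, in which the synthetases were also lower in replicates 2 and 3 than in replicate 1. The part of this response in the synthetase levels was not tested. ATF4 itself had 79.3, 106 and 111 CPM in the fresh libraries and 127, 53.5 and 53.9 CPM in the preconditioned libraries, and its groups overlapped.

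In a list of 14 genes of growth and ribosome production, 13 were tested and 2 fell, where 2.2% of all tested genes were called lower. DESeq2 called 5 lower (9.43% of all genes it tested), and edgeR without preconditioned replicate 1 called 9 lower (13.9%). POLR1A, the largest subunit of RNA polymerase I, had a log2 fold change of −1.41 (SE 0.26, edgeR adjusted p 0.0388), and POLR1B, a further subunit, had −0.91 (SE 0.19, edgeR adjusted p 0.0461). NOP56, NOP58, FBL and NCL, proteins of the nucleolus, had −1.17, −0.96, −0.71 and −0.69, and the median of the 13 genes was −0.62 (−0.98 without preconditioned replicate 1). MYC had a log2 fold change of 0.092, which became −0.072 with library size alone. With the replicate number as a block, none of DDIT4, POLR1A and POLR1B passed the adjusted threshold, nor did they when any single library other than preconditioned replicate 1 was left out.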

How the data were processed

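Polyadenylated RNA of primary LSCs was sequenced by the authors in 3 fresh and 3 preconditioned libraries. The authors aligned reads with hisat2 and counted them with htseq-count, and the deposited counts per gene are not normalized. The deposited FPKM equalled the count over the library total and over 1 length per gene. Genome build, annotation and strand setting are not given in the sources used here, so no coordinates are printed. All 36 members were matched by gene identifier to the RefSeq table of mOryCun1.1, which was used for names and neighbours only.

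Counts were fitted in R 4.3.3 with edgeR 4.0.16 (filterByExpr, TMM, robust quasi-likelihood test, group as sole term), with Benjamini-Hochberg adjustment over 15029 genes. The cutoffs were 0.05 for the adjusted p and 1 for the size of the log2 fold change. CPM were scaled by TMM. Standard errors were derived from the F statistic. Ratios between enzymes were compared by exact permutation tests. Libraries of a group differed by more than sampling noise, with a chi-square per degree of freedom of 48.1 to 147. Alternatives were DESeq2 1.42.0, other scalings and filters, the replicate block, leaving out each library, and limma 3.58.1 on log2(FPKM + 1) and log2(FPKM + 0.1). The fits were tested on simulated data.

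The members and gene lists were chosen with earlier results of these data known. Values in each library are given for the 5 members of each compartment with the largest absolute log2 fold change, the highest and lowest by FPKM, GARS1, KARS1, EPRS1, WARS1 with WARS2, and HARS1 with HARS2. From other lists, genes past the adjusted threshold and up to 4 more with the largest absolute log2 fold change are named. YARS2, AIMP1, AIMP2, EEF1E1, ATF4, MYC, COL1A1 and rows described as synthetases outside the rule were named after their values were seen. Some members enter the counts and medians but are not reported here by name or drawn.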

Additional observations from a re-analysis of the deposited data

How the results depend on the processing

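No member passed an adjusted p of 0.05 in edgeR with TMM scaling, with DESeq2's size factors, with at least 10 counts in every library, or with the replicate block. DESeq2 called 9 members (4 cytosolic, 5 mitochondrial), 2 of them at both cutoffs, library size alone 5 (1 and 4), 2 at both cutoffs, no filter on low counts 1 mitochondrial enzyme, also at both cutoffs, limma on log2(FPKM + 1) 4 mitochondrial enzymes, and limma on log2(FPKM + 0.1) 5 (1 and 4), 2 at both cutoffs. All were lower, where in the same order 9.43%, 6.97%, 1.94%, 5.86% and 6.15% of all tested genes were called lower and 4.17%, 2.81%, 0.982%, 1.37% and 2.99% lower at both cutoffs. Leaving out each library gave 0 to 21 members, 0 to 14 cytosolic and 0 to 7 mitochondrial enzymes, and 0 to 6 at both cutoffs, the highest each time without preconditioned replicate 1, where 13.9% of all tested genes were called lower and 6.01% lower at both cutoffs.

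The cytosolic median log2 fold change was −0.56 with library size alone, −0.56 and −0.58 in the limma fits, and −0.62 to −0.28 when a library was left out. The mitochondrial median was −0.48 with library size alone and with log2(FPKM + 0.1), and −0.52 to −0.18 when a library was left out. In all, 27 members were negative under every setting. FARS2, KARS1, QARS1 and RARS1 became negative with library size alone (−0.11, −0.11, −0.096 and −0.11), with log2(FPKM + 1) (−0.048, −0.11, −0.093 and −0.12) and with log2(FPKM + 0.1) (−0.11, −0.11, −0.094 and −0.12). Without single libraries, FARS2 ranged from −0.084 to 0.17, RARS1 from −0.032 to 0.10, KARS1 from −0.0044 to 0.10, IARS2 from −0.068 to 0.061, and EPRS1 from −0.29 to 0.045.

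Ratios without overlap numbered 8, and 8 to 10 when a library was left out. Leaving out a library cannot make separate groups overlap, so this count could not fall and is no check of stability. Same-numbered libraries did not deviate together (mean correlation −0.087), so the number is not taken as a pairing. Of the ratios, 10 moved the same way in all 3 numbered pairs, which the 8 without overlap must do under any matching of libraries. With the replicate block the calls among all tested genes numbered 30 in place of 763. For the partner, translation factor, amino acid response, interferon and growth lists together, without the cell type markers, an alternative added after seeing the data, 3 genes passed, against 22 with DESeq2, 9 with library size alone, 7 and 9 in the limma fits, 0 with the replicate block, and 0 to 40 when a library was left out. Of all tested genes 5.08% passed in edgeR with all 6 libraries, and DESeq2 called 9.43% lower and 9.68% higher. The share was 8.92% with library size alone, 7.55% and 8.02% in the limma fits, and 0.2% with the replicate block. It was 25.2% without preconditioned replicate 1, and at most 0.533% without any other single library. The causes were not tested. Depth limits PARS2 most, with 33 counts in its lowest library.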
